A study of Homo sapiens with 6 samples.

Results

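Histone gene expression was examined in the human endometrial cancer line AN3CA, which is an established line and expresses *PAX2*. The members were taken by symbol: every listed gene of the HIST1, HIST2, HIST3 and HIST4 clusters and 10 named variant genes, which gave 73 of 17471 genes. HIST1, on chromosome 6, supplied 48 of them, HIST2 and HIST3, both on chromosome 1, supplied 11 and 3, and HIST4, on chromosome 12, supplied 1. Total RNA was read from 3 libraries of cells carrying an empty hairpin vector (shEV, genotype WT) and 3 libraries of cells carrying 1 short hairpin RNA against *PAX2* (shPAX2, genotype PAX2 KD). Both groups were lentivirally transduced, selected with puromycin and grown in the same medium. The study calls the AN3CA control scrambled in other places. Nothing says that the libraries of a group came from separate cultures, so the p-values measure the spread between these libraries, which may be technical. Values are given in the order of the replicate numbers. *PAX2* itself stood at 4.03, 3.66 and 2.74 TPM in the shEV libraries and at 0.916, 0.723 and 1.17 TPM in shPAX2, a log2 fold change of -1.47 (SE 0.18, limma adjusted p 0.000294).

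Nucleosomes hold DNA around a core of the histones H2A, H2B, H3 and H4, and the linker histone H1 binds where DNA enters and leaves. Most of these proteins come from replication-dependent genes, clustered in the genome, without introns, and transcribed in S phase. Their mRNAs end in a conserved stem-loop, bound by SLBP, in place of a poly(A) tail. The variant genes stand alone, are transcribed outside S phase too, and mostly give polyadenylated mRNAs, with H2A.Z, macroH2A, H2A.X and H3.3 among their products. The libraries were made with a stranded total RNA kit, and the study describes rRNA depletion for its libraries of another line, so mRNAs without a poly(A) tail could be read.

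The stem-loop was searched in the 150 bases after the stop codon on GRCh37, by the consensus of the motif. The motif was found in 59 of 59 coding members of the clusters with a sequence and in 1 of 10 variant genes, *H2AFX*. A match in the genome does not show that the mRNA ends there. The sequences of members that the results turn on are shown 5′ to 3′ with the 16 bases of the stem-loop in capitals. They start 22 to 67 bases after the stop codon in all members that hold them.
*HIST1H1E* (chr6:26157316-26157345, plus strand): acccaaaGGCTCTTTTCAGAGCCacccacc
*HIST1H2AB* (chr6:26033319-26033348, minus strand): cagcaaaGGCTCTTTTCAGAGCCacctacg
*HIST1H2BJ* (chr6:27100093-27100122, minus strand): ccctaacGGCTCTTTTAAGAGCCacccatg
*HIST1H3B* (chr6:26031818-26031847, minus strand): acccaaaGGCTCTTTTCAGAGCCacccact
*HIST1H4C* (chr6:26104538-26104567, plus strand): acccaaaGGCCCTTTTCAGGGCCgctcaca
*HIST2H2AC* (chr1:149858934-149858963, plus strand): gaccaaaGGCTCTTTTTAGAGCCacccaag
*HIST3H2BB* (chr1:228646232-228646261, plus strand): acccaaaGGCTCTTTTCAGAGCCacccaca
*HIST4H4* (chr12:14923651-14923680, minus strand): tccaaaaGGCCCTTTTCAGGGCCcccaaac
*H2AFX* (chr11:118965601-118965630, minus strand): ccacaaaGGCCCTTTTAAGGGCCaccaccg
The form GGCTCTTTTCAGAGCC was the most common, in 36 members of the H1, H2A, H2B and H3 classes. All 10 H4 genes carried another stem, 8 as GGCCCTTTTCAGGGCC and 2 as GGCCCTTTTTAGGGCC. *HIST3H2BB*, which fell, and *HIST1H3B*, which rose, held the same 16 bases.

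Histone mRNAs were among the most abundant transcripts listed. Of the 100 genes with the highest mean TPM, 17 were members, and all members together took 3.80%, 3.74% and 3.45% of the TPM in shEV replicates 1 to 3 and 4.43%, 3.85% and 3.75% in shPAX2. TPM is a read count per gene length and scaled to the same total in each library. Levels of different genes can be compared only as far as the length used matches the mRNA. For *HIST2H2BE* it is 2223 bases, though the stem-loop starts 56 bases after the stop codon of a 378-base coding sequence. A gene given such a length has a lower TPM for the same reads. The linker histone gene *HIST1H1E* was the most abundant member, with a mean of 2706 TPM over the 6 libraries, at rank 28 of all genes. *HIST1H4C*, *HIST1H4E* and *HIST1H3B* followed at ranks 33, 37 and 38.

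The members fell into an abundant and a scarce set with no gene between. A mean above 30 TPM was held by 44 members, the lowest of them *HIST1H3E* at 45.3 TPM, and a mean under 10 TPM by 29 members, the highest of them *H3F3A* at 7.73 TPM. Within HIST1, 28 genes were abundant and 20 scarce, and 15 members in all clusters had at most 3 reads in every library, which is the floor used here. Scarcity did not follow class: *HIST1H1B* and *HIST1H1D*, which encode somatic linker histones, had at most 3 reads in any library, while *HIST1H1C* and *HIST1H1E* had means of 2136 and 2706 TPM. The testis genes *HIST1H1T*, *HIST1H2BA* and *HIST3H3* were all scarce.

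Near-identical copies limit the level of some members. For each gene with a sequence, 75-base windows were taken from its coding sequence, or from its exons where no coding sequence is annotated. The share of windows that occur elsewhere in the genome was counted, since such reads cannot be placed. Untranslated parts of coding genes were not searched, so reads from them may still have been placed. The read length of 75 bases is the one stated for the study's other line. Of 28 scarce members with a value, 6 had all windows elsewhere: *HIST2H3A* and *HIST2H3C*, with identical values in every library, *HIST2H2AA3* and *HIST2H2AA4*, likewise identical, *HIST1H4K* and *H3F3A*. Their low values are uncertain. A further 19 of the 28 had no such window, *HIST1H1B* and *HIST1H1D* among them. Of 43 abundant members with a value, 22 had none and 1, *HIST1H4J*, had all.

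**Figure D1:**
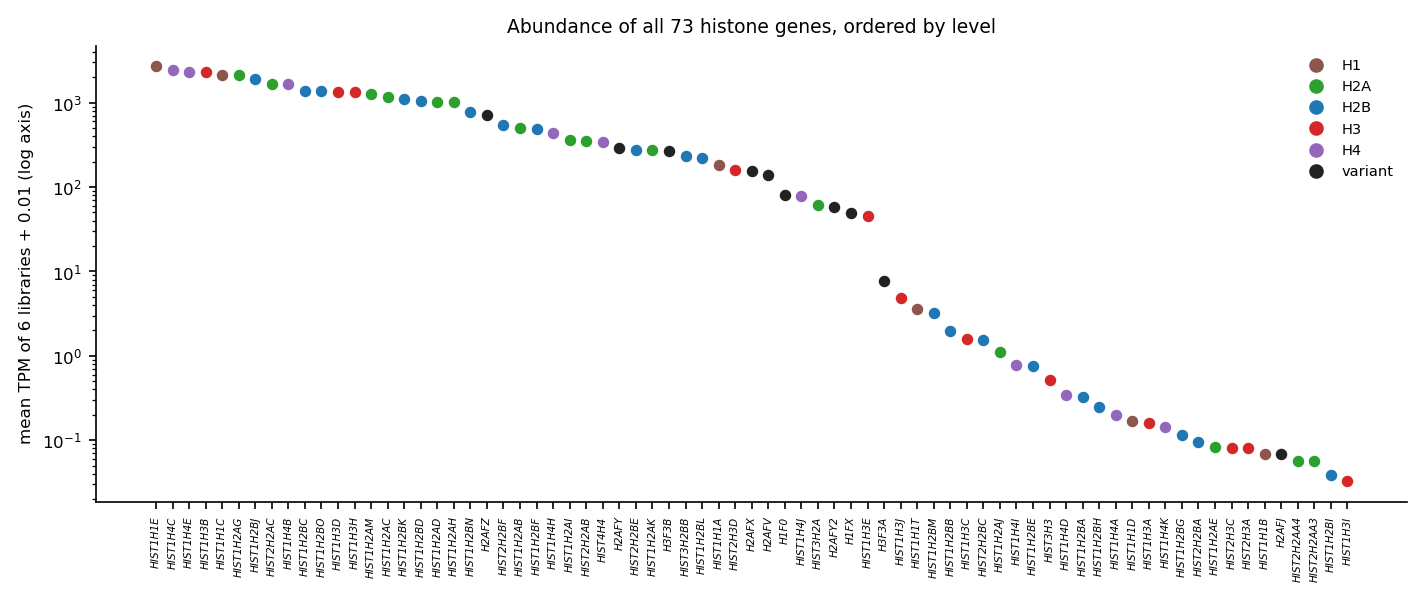
Mean TPM of the 6 libraries, plus 0.01 and on a log axis, for all 73 histone genes in order of level, coloured by class with the 10 variant genes in black. The lowest abundant gene stands at 45.3 TPM and the highest scarce gene at 7.73 TPM, and each class has genes on both sides of the gap.

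A few genes supplied most of the TPM of the H1, H3 and H4 classes. In H2A and H2B it was spread more widely. The largest mean shares there in shEV were 20.2% for *HIST2H2AC* and 17.7% for *HIST1H2BJ*. Over the H1 genes of the clusters, *HIST1H1E* gave 53.4% and *HIST1H1C* 42.9% of the TPM in shEV on average, and 54.3% and 41.9% in shPAX2. *HIST1H3B* gave 44.3% of the H3 total in shEV and 44.4% in shPAX2, followed by *HIST1H3D* and *HIST1H3H*. *HIST1H3D* had more reads than *HIST1H3B* in every library, such as 6641 against 5938 in shEV replicate 1. Its TPM divides by 921 bases, against 472 for *HIST1H3B*, so this order rests on the lengths. The H4 total rested on *HIST1H4E*, *HIST1H4C* and *HIST1H4B*, at 35.3%, 30.7% and 20.7% in shEV. Their order differed in shPAX2, at 29.1%, 35.4% and 24.6%.

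Shares also moved within H2A and H4. *HIST2H2AC* gave 19.0%, 20.1% and 21.5% of the H2A total in shEV replicates 1 to 3 and 12.4%, 13.6% and 16.9% in shPAX2. The groups did not overlap. *HIST1H2AB* went the other way, from 3.84%, 3.81% and 3.76% to 6.99%, 6.64% and 5.66%. *HIST4H4* gave 6.56%, 6.18% and 5.90% of the H4 total in shEV and 3.97%, 3.53% and 3.06% in shPAX2. These shares are descriptions without a test.

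For the comparison of shPAX2 with shEV, genes with at least 0.5 TPM in at least 3 libraries were tested with limma on log2(TPM + 0.5), and a gene was called at an adjusted p under 0.05. All fold changes are on that scale, and those of low genes come out too small on it. Of 73 members, 55 passed the filter on low values, among 13163 genes in all: 36 of HIST1, 6 of HIST2, 3 of HIST3, 1 of HIST4 and 9 of 10 variants. Of these 55, 12 were called higher and 12 lower in shPAX2, and 31 were not called. Over all genes tested, 42.8% were called, 12.2% higher and 30.5% lower, so the members' 21.8% in each direction lay above the background for higher genes and below it for lower genes. When a log2 fold change of 1 or more in either direction was also required, 1 member was called, *HIST3H2BB*, against 4.54% of all genes. The groups did not overlap in 26 members, 16 higher and 10 lower, where 54.9% of all genes tested did not overlap.

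The direction differed by cluster. In HIST1, 11 genes were higher and 4 lower of 36, with a median log2 fold change of 0.19, which became -0.32 when chromosome 6 was centred as described next. In HIST2, HIST3 and HIST4 none was higher and 6 of 10 were lower, with a median of -0.41. Of 9 variants, 1 was higher and 2 lower, with a median of 0.09. The median of all genes tested was -0.10.

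Genes of chromosome 6, where HIST1 lies, stood higher in shPAX2 relative to other genes. Those that are not members stood at -0.25, -0.27 and -0.25 on the log2 scale in the shEV libraries and at 0.27, 0.24 and 0.26 in shPAX2. Of the 600 tested, 383 were higher and 43 lower, with a median fold change of 0.41. The 15 other tested genes between the first and the last HIST1 gene (chr6:25727005-27861669) had a median of 0.21, with 7 higher and 4 lower. Of the 36 HIST1 members, 27 lay below the median of the chromosome and 9 above it. When each library's chromosome 6 shift was subtracted before the fit, 1 HIST1 member was called higher, *HIST1H3J*, and 17 lower. The shift subtracted is that of the whole chromosome, whose median of 0.41 lies above the 0.21 of the 15 genes within the HIST1 span. Centring thus takes off more than those 15 genes showed, and a shift of that region alone was not used. The fold change of 18 of the 36 went from above to below 0 with this centring, while 14 were below 0 and 4 above 0 on both scales. The part of that shift in the HIST1 results was not tested further.

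**Figure D2:**
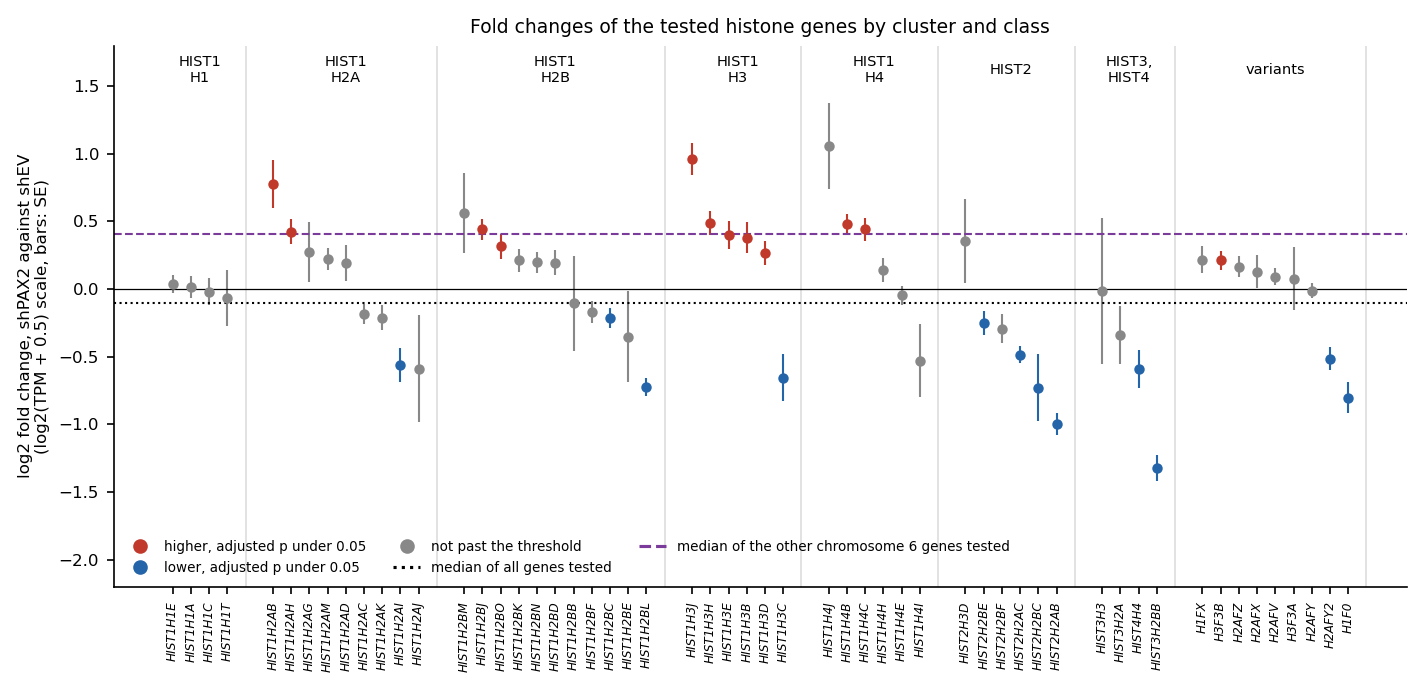
Log2 fold change of shPAX2 against shEV on the log2(TPM + 0.5) scale for the 55 tested histone genes, with 1 SE as bars, by cluster and, in HIST1, by class; 3 libraries a group. HIST1 points scatter about 0.19 and mostly under the dashed chromosome 6 median of 0.41, while 9 of 10 genes of HIST2, HIST3 and HIST4 lie below 0; centring chromosome 6 lowers all HIST1 points and moves their median to -0.32.

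Of 6 tested H3 genes of HIST1, 5 rose and 1 fell, with a median of 0.39 that became -0.12 with chromosome 6 centred. The most abundant by TPM, *HIST1H3B*, stood at 2343, 1897 and 1787 TPM in the shEV libraries and at 2865, 2591 and 2359 in shPAX2. Every shPAX2 library was above every shEV library, with a log2 fold change of 0.38 (SE 0.11, limma adjusted p 0.0264). The call was lost without shEV replicate 2 or 3 or shPAX2 replicate 1 or 2, with an adjusted p of up to 0.0890. *HIST1H3H* rose by 0.49, *HIST1H3E* by 0.40 and *HIST1H3D* by 0.26 on the log2 scale. The *HIST1H3D* call (limma adjusted p 0.0401) was lost with no filter (0.0769), and the adjusted p reached 0.138 over the alternatives.

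The largest HIST1 rise among called genes was of a scarce H3 gene. *HIST1H3J* stood at 3.51, 3.08 and 2.78 TPM in shEV and at 7.11, 5.90 and 6.65 in shPAX2, a log2 fold change of 0.96 (SE 0.12, limma adjusted p 0.000308). The groups were well apart, and it was the HIST1 gene still higher with chromosome 6 centred (0.45, adjusted p 0.0137, within 0.000118 to 0.0137 over the alternatives). *HIST1H3C*, also scarce, fell from 2.43, 1.73 and 1.93 TPM to 0.854, 1.13 and 1.34 (log2 fold change -0.66, SE 0.17, limma adjusted p 0.0148). That call was lost without shEV replicate 1 (0.0524), after quantile normalization (0.0997) and with voom on recovered reads (0.110).

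Among H4 genes of HIST1, 2 of 6 tested rose and none fell, with a median of 0.29 that became -0.22 with chromosome 6 centred. *HIST1H4C* stood at 2198, 1990 and 1936 TPM in the shEV libraries and at 3122, 2624 and 2584 in shPAX2, a log2 fold change of 0.44 (SE 0.09, limma adjusted p 0.00344). *HIST1H4B* rose by 0.48 (SE 0.07, limma adjusted p 0.000734), from 1378 ± 101 to 1924 ± 80.6 TPM (SD, n = 3 each). The groups did not overlap for either gene. *HIST1H4E*, next to *HIST1H4C* in abundance, had a log2 fold change of -0.05 (limma adjusted p 0.631).

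*HIST1H4J* had the highest fold change of any member without a call. It stood at 42.4, 49.9 and 56.6 TPM in shEV and at 141, 117 and 66.8 in shPAX2, a log2 fold change of 1.06 (SE 0.32, limma adjusted p 0.0540). The third shPAX2 library lay close to the shEV values, and without it the fold change was 1.37 (limma adjusted p 0.000653). All windows of its coding sequence occur elsewhere in the genome, so its level is uncertain. *HIST1H4I*, with the lowest fold change of the tested H4 genes in HIST1, stood at -0.53 on the log2 scale (limma adjusted p 0.140) at no more than 1.51 TPM.

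H2A and H2B genes of HIST1 went both ways. Of 9 H2A genes tested, 2 rose and 1 fell (median 0.19, and -0.32 with chromosome 6 centred), and of 11 H2B genes 2 rose and 2 fell (median 0.20, and -0.32). *HIST1H2AB* stood at 394, 376 and 335 TPM in shEV and at 800, 630 and 498 in shPAX2, a log2 fold change of 0.78 (SE 0.18, limma adjusted p 0.0157). All shPAX2 values were higher, and without shPAX2 replicate 2 the adjusted p was 0.0576. With chromosome 6 centred, *HIST1H2AB* stood at 0.27 and was not called (limma adjusted p 0.276). *HIST1H2AH* and *HIST1H2BO* rose by 0.42 and 0.32 on the log2 scale.

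*HIST1H2BJ*, the most abundant H2B gene by TPM, rose from 1638, 1683 and 1474 to 2355, 2037 and 2121 TPM (log2 fold change 0.44, SE 0.08, limma adjusted p 0.00189). Its head-to-head neighbour *HIST1H2AG*, the most abundant H2A gene, stood at 2035, 1962 and 1665 TPM in shEV and at 3024, 2241 and 1734 in shPAX2. Here the groups overlapped, and the log2 fold change of 0.27 (SE 0.22, limma adjusted p 0.364) was not called. Within HIST1, the scarce *HIST1H2BM* had the highest log2 fold change of the H2B genes, 0.56, and *HIST1H2AJ* the lowest of the H2A genes, -0.59, with limma adjusted p of 0.169 and 0.269.

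The falls of HIST1 with groups apart included a pair of neighbours. *HIST1H2BL* stood at 251, 290 and 276 TPM in shEV and at 169, 164 and 161 in shPAX2, a log2 fold change of -0.72 (SE 0.07, limma adjusted p 6.07e-05). *HIST1H2AI*, head to head with it and 243 bases away, stood at 475, 427 and 397 TPM in shEV and at 341, 302 and 242 in shPAX2, a log2 fold change of -0.56 (SE 0.13, limma adjusted p 0.0109). The groups did not overlap for either gene. The next gene, *HIST1H3H*, 1383 bases beyond the end of *HIST1H2AI*, rose from 1110 ± 124 to 1553 ± 98.0 TPM (SD, n = 3 each). Of the windows of *HIST1H2AI* 81.6% occur elsewhere, against 2.96% for *HIST1H2BL*. *HIST1H2BC* was called lower as well (-0.21, limma adjusted p 0.0441), with overlapping groups, but the call was lost with no filter (0.0721) and the adjusted p reached 0.329 over the alternatives.

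The H1 genes were not called. *HIST1H1E* stood at 2663, 2786 and 2561 TPM in shEV and at 2921, 2582 and 2722 in shPAX2, a log2 fold change of 0.04 (SE 0.07, limma adjusted p 0.678). The groups overlapped for each of the 4 H1 genes tested, and their fold changes ran from -0.07 for *HIST1H1T* to 0.04, close to the level of all genes and below that of their chromosome. With chromosome 6 centred, 3 of the 4 were lower, *HIST1H1E* at -0.48 (adjusted p 0.000652, within 0.000652 to 0.948 over the alternatives).

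**Figure D3:**
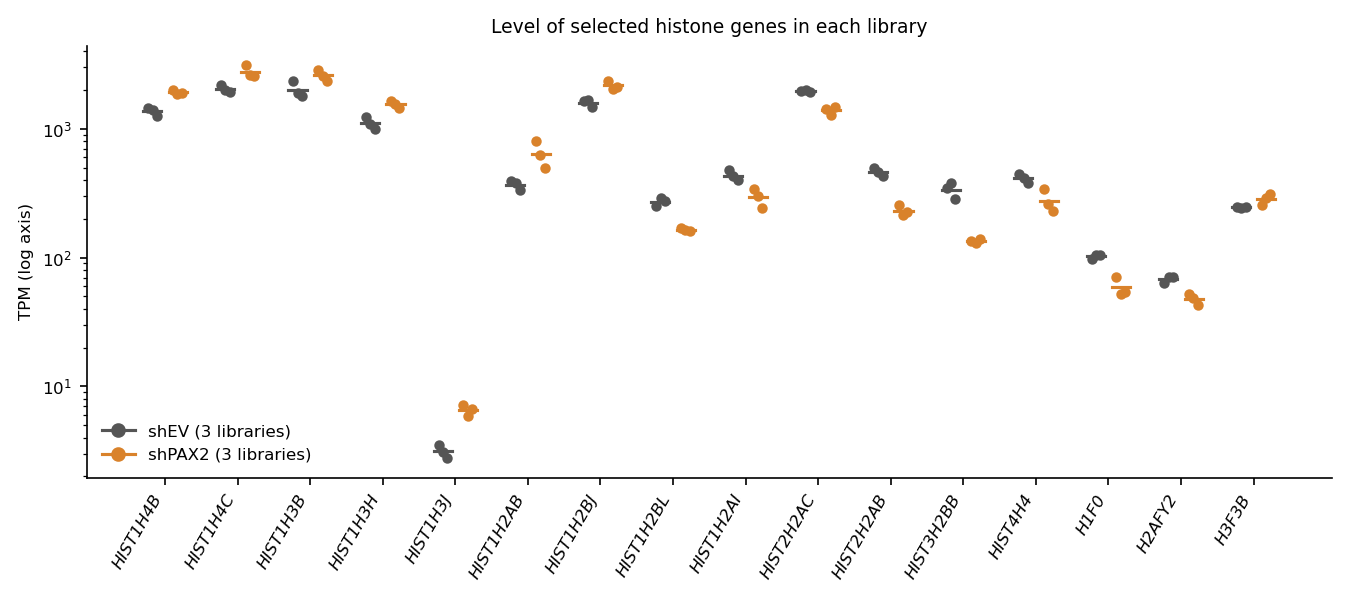
TPM on a log axis of 16 histone genes in each of the 6 libraries, with the group mean as a line. Among them *HIST3H2BB* drops from a mean of 337 to 134 TPM and *HIST2H2AB* from 464 to 232, while *HIST1H4C* and *HIST1H4B* are higher in every shPAX2 library; HIST1 levels are on the TPM scale, without chromosome 6 centring.

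Outside chromosome 6, cluster genes were lower or not called. *HIST3H2BB*, an H2B gene of the small HIST3 cluster, had the largest change of any member. It stood at 348, 377 and 286 TPM in the shEV libraries and at 134, 129 and 138 in shPAX2. Every shPAX2 library was far below every shEV library. The log2 fold change was -1.32 (SE 0.10, limma adjusted p 1.99e-05), and over all alternatives the adjusted p ran from 1.48e-06 to 0.000442. Its neighbour *HIST3H2A*, 229 bases away and head to head, stood at 68.0, 76.0 and 59.4 TPM in shEV and at 68.6, 54.7 and 40.1 in shPAX2, with overlapping groups (log2 fold change -0.34, SE 0.22, limma adjusted p 0.262). *HIST3H3* had at most 1.28 TPM in any library and a log2 fold change of -0.01 (limma adjusted p 0.988).

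In HIST2, both abundant H2A genes fell. *HIST2H2AB* stood at 499, 462 and 429 TPM in shEV and at 255, 214 and 226 in shPAX2, a log2 fold change of -0.9996 (SE 0.08, limma adjusted p 3.19e-05), just short of the fold threshold. *HIST2H2AC* stood at 1949, 1988 and 1917 TPM in shEV and at 1416, 1288 and 1487 in shPAX2, a log2 fold change of -0.48 (SE 0.07, limma adjusted p 0.000538). The groups were apart for both genes. *HIST2H2BE*, an H2B gene head to head with *HIST2H2AC*, was lower by less, -0.25 (SE 0.09, limma adjusted p 0.0419), with overlapping groups. *HIST2H2BC*, an annotated pseudogene with 6 to 15 reads in a library, was lower too (-0.73, SE 0.25, limma adjusted p 0.0431), with overlapping groups. Both calls of these H2B genes were lost under several alternatives, with an adjusted p of up to 0.263 for *HIST2H2BE* and 0.158 for *HIST2H2BC*.

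The other HIST2 genes were not called. *HIST2H2BF* stood at 589, 628 and 582 TPM in shEV and at 588, 457 and 434 in shPAX2, a log2 fold change of -0.29 (SE 0.11, limma adjusted p 0.0575), and without shPAX2 replicate 1 the adjusted p was 0.000851. *HIST2H3D* was the member outside HIST1 and the variants with a positive fold change, 0.36 (SE 0.31, limma adjusted p 0.414), its groups overlapping. *HIST4H4*, a lone H4 gene, fell from 448, 412 and 381 to 338, 261 and 231 TPM, a log2 fold change of -0.59 (SE 0.14, limma adjusted p 0.0140). No shPAX2 library reached the lowest shEV value. Without shPAX2 replicate 2 its adjusted p was 0.0525.

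The TPM was also summed over genes. HIST1 took 3.19%, 3.13% and 2.88% of the TPM in shEV and 3.91%, 3.38% and 3.28% in shPAX2, a ratio of means of 1.15. HIST2, HIST3 and HIST4 together took 0.438%, 0.439% and 0.405% in shEV and 0.332%, 0.281% and 0.292% in shPAX2, a ratio of 0.707, and the groups did not overlap. By class over all clusters, the ratio was 1.30 for H3, 1.18 for H4, 1.06 for H2B, 1.02 for H2A and 1.01 for H1. For H3 and H4 every shPAX2 library lay above every shEV library, while for H1, H2A and H2B the groups overlapped. These sums include the shift of chromosome 6. With that chromosome centred, the median log2 fold changes of the HIST1 H3 and H4 genes were -0.12 and -0.22. In bulk RNA, a different share of cells in S phase and a different amount of histone mRNA per cell cannot be told apart. By flow cytometry of AN3CA cells that had been starved of serum and then fed, the study reports more cells in S phase after *PAX2* knockdown. The part of this in the sums was not tested.

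**Figure D4:**
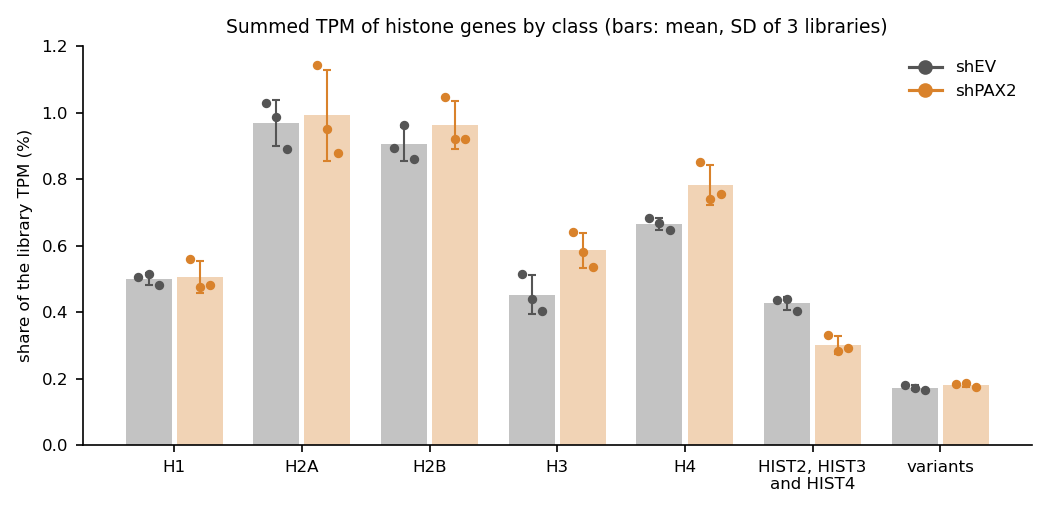
Share of the library TPM in percent summed over the histone genes of each class, for 3 shEV and 3 shPAX2 libraries (points), with the mean and SD. The class sums run over all clusters, so the genes of HIST2, HIST3 and HIST4 also count in them; H3 stands at 0.452% and 0.586% and HIST2, HIST3 and HIST4 at 0.427% and 0.302% on the TPM scale, which includes the shift of chromosome 6.

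Among the variant genes, 2 fell and 1 rose. *H1F0* encodes H1.0, the linker histone known for building up in cells that stop dividing. It stood at 97.2, 104 and 105 TPM in the shEV libraries and at 71.1, 51.8 and 53.7 in shPAX2, a log2 fold change of -0.80 (SE 0.12, limma adjusted p 0.00115). *H2AFY2*, which encodes macroH2A2, a large H2A variant of silent chromatin, fell from 63.0, 71.2 and 70.3 to 52.1, 48.3 and 42.5 TPM (log2 fold change -0.52, SE 0.08, limma adjusted p 0.00145). No library of either gene crossed between the groups.

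*H3F3B*, an H3.3 gene, rose from 247, 245 and 245 to 258, 288 and 309 TPM (log2 fold change 0.21, SE 0.07, limma adjusted p 0.0397). The groups did not overlap, but the call was lost without any single library other than shPAX2 replicate 1, with an adjusted p of up to 0.125. The other H3.3 gene, *H3F3A*, stood between 5.09 and 9.48 TPM in all libraries (log2 fold change 0.08, limma adjusted p 0.817). Since all windows of its coding sequence occur elsewhere, that level is uncertain. The H2A.Z genes *H2AFZ* and *H2AFV* had log2 fold changes of 0.17 and 0.09 (limma adjusted p 0.120 and 0.270).

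The remaining variants were not called. *H2AFX*, whose product is phosphorylated beside DNA breaks, had a log2 fold change of 0.13 (limma adjusted p 0.439), at 162, 157 and 130 TPM in shEV and 182, 173 and 138 in shPAX2. *H2AFY*, the macroH2A1 gene, stood between 277 and 303 TPM in all libraries, at -0.01 (limma adjusted p 0.892). *H1FX* was at 0.22 (limma adjusted p 0.113), with groups that did not overlap. *H2AFJ* was below the filter, with at most 0.151 TPM. The 3 called variants lie on chromosomes 22, 10 and 17, away from the shift of chromosome 6.

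Many H2A and H2B genes stand head to head and share the sequence between their starts. With at most 500 bases between the genes, 10 such pairs were found, 169 to 288 bases apart. Over the 10 pairs, Pearson r between the log2 mean TPM of the H2A and the H2B gene was 0.954. It is a description only, since all points share the same 6 libraries. It spans abundant and scarce pairs, and the abundant pairs were not examined alone. The scarce pairs were *HIST2H2AA4* with *HIST2H2BC* and *HIST1H2AJ* with *HIST1H2BM*. The level of *HIST2H2AA4* is uncertain, as all its windows occur elsewhere, and *HIST2H2BC* is an annotated pseudogene. Of 9 pairs with both genes tested, 7 had the same sign of fold change, and r between the fold changes was 0.427. *HIST1H2AK* and *HIST1H2BN*, 169 bases apart, had -0.21 and 0.20, and neither was called.

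**Figure D5:**
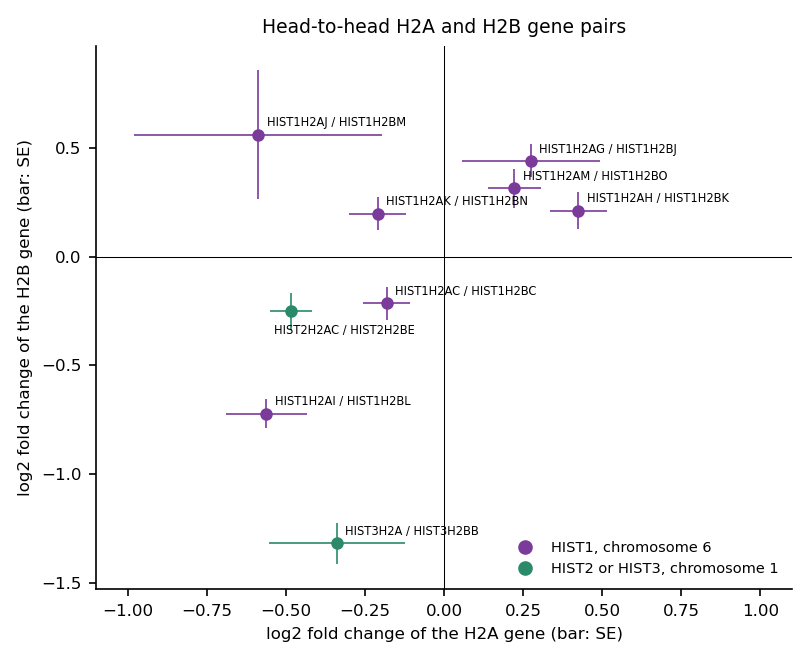
Log2 fold change of shPAX2 against shEV, with 1 SE as bars, of the H2A gene (x) and the H2B gene (y) in the 9 head-to-head pairs with both genes tested. The pair *HIST1H2AI* and *HIST1H2BL* lies low on both axes, *HIST3H2BB* lies far below its partner, and 7 of 9 pairs share a sign; with chromosome 6 centred the purple HIST1 points would move down and left.

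The promoters of 61 members were listed by RefSeq on GRCh38.p14, each 300 bases, from 250 before the start to 50 after it. They were searched on both strands for the octamer ATTTGCAT, bound by *POU2F1*, for CCAAT and for TATAAA. The octamer was in 9 of 13 H2A promoters (69.2%) and 12 of 16 H2B promoters (75%), in 1 of 10 H3 promoters, in none of 6 H1 and 7 H4 promoters, and in 1.77% of all 35116 promoters. That H3 promoter, listed for *HIST1H3D*, has the same coordinates as the promoter of the H2A gene *HIST1H2AD*, so it is counted in both classes. CCAAT was in every H1, H2A, H2B and H3 promoter, in 1 of 7 H4 promoters and in 34.6% of all. TATAAA was in 80% of H3, 76.9% of H2A, 68.8% of H2B and 11.5% of all promoters. A match is a description of the letters and does not show that a factor binds.

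The 250 bases before the start are shown for 3 H2B genes, because *HIST1H2BJ* rose while *HIST1H2BL* and *HIST3H2BB* fell, with the matches to the octamer, CCAAT and TATAAA on either strand in capitals.
*HIST1H2BJ* (GRCh38.p14 chr6:27132796-27133045, minus strand): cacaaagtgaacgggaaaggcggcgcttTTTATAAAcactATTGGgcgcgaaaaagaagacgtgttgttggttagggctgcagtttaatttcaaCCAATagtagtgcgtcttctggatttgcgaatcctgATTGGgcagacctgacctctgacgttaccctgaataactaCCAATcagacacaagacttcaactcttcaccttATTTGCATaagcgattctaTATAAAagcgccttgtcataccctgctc
*HIST1H2BL* (GRCh38.p14 chr6:27807930-27808179, minus strand): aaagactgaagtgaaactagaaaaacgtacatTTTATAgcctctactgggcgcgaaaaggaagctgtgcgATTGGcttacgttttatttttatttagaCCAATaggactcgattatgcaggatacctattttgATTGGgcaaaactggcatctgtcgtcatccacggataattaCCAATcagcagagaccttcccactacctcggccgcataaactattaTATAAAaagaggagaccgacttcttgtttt
*HIST3H2BB* (GRCh38.p14 chr1:228457853-228458102, plus strand): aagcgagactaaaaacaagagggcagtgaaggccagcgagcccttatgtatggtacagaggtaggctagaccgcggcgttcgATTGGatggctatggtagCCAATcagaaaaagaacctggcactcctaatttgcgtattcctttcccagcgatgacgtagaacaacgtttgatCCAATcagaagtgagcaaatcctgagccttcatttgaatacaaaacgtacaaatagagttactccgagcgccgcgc
*HIST1H2BJ* holds the octamer once, 4 CCAAT and 3 TATAAA matches, some overlapping. *HIST1H2BL* holds 4 CCAAT and 2 TATAAA matches and *HIST3H2BB* 3 CCAAT matches, and neither holds the octamer or, for *HIST3H2BB*, TATAAA. Of 13 tested HIST1 H2A and H2B genes with the octamer, 3 rose and 1 fell (median 0.21), of 5 without it none rose and 2 fell (median -0.21), and of 4 such genes of HIST2 with it none rose and 3 fell (median -0.39). Head-to-head pairs, which share the sequence between their starts, count as 2 genes here. The 2 falls in HIST1 without the octamer were of 1 such pair, *HIST1H2BL* and *HIST1H2AI*. *HIST1H2AK* and *HIST1H2BN* are another pair among those 5 genes. These groups were formed after the values had been seen and were not tested, and the HIST1 medians include the shift of chromosome 6.

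Genes that act on histone mRNAs were examined beside the members. Of 27 genes for transcription and 3′ processing of histone mRNAs, 26 were tested, and 5 were higher (19.2%) and 5 lower (19.2%), against 12.2% and 30.5% of all genes, with a median log2 fold change of 0.02. *SLBP*, which binds the stem-loop, stood at 93.1, 99.8 and 108 TPM in shEV and at 94.9, 106 and 112 in shPAX2, with overlapping groups (0.05, limma adjusted p 0.618). *NPAT*, the coactivator of histone loci, and the U7 snRNP proteins *LSM10* and *LSM11* were not called (-0.13, 0.00 and -0.15). *E2F1* was not called either (0.12, limma adjusted p 0.152).

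*CASP8AP2*, a component of histone locus bodies, rose by 0.66 (SE 0.07, limma adjusted p 0.000103), was the highest of that list, and lies on chromosome 6. With that chromosome centred it stood at 0.15 (adjusted p 0.0956, within 3.43e-06 to 0.0956 over the alternatives). *POU2F1*, which encodes the octamer factor OCT1, was the lowest of the list and fell from 6.97, 7.93 and 7.95 to 5.39, 5.64 and 5.98 TPM (log2 fold change -0.39, SE 0.09, limma adjusted p 0.00869, and 0.189 after quantile normalization).

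Of 29 histone chaperones and related genes, all tested, 7 were higher (24.1%) and 5 lower (17.2%), against 12.2% and 30.5% of all genes (median 0.04). *HIRA*, the H3.3 chaperone used outside replication, was the lowest and fell from 28.6 ± 2.05 to 18.5 ± 2.09 TPM (SD, n = 3 each, log2 fold change -0.62, SE 0.09, limma adjusted p 0.000912). *DAXX*, the other H3.3 chaperone, was the highest and rose from 16.5 ± 0.270 to 26.9 ± 1.19 TPM (log2 fold change 0.69, SE 0.06, limma adjusted p 5.67e-05). Its TPM divides by 13079 bases, more than the gene spans on GRCh37, so its level beside that of *HIRA* is uncertain. *DAXX* lies on chromosome 6, and with that chromosome centred it stood at 0.17 (adjusted p 0.0512, within 5.98e-07 to 0.0512 over the alternatives).

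Genes of S phase, when replication-dependent histone genes are transcribed, were examined too. Of 43 genes of a list used for cell cycle scoring, all tested, 20 were higher and 3 lower, against 12.2% higher and 30.5% lower of all genes, with a median of 0.16, and 2 of the 43 lie on chromosome 6. The part of that list in the histone results was not tested. Of the epithelial markers, *KRT18* stood between 10.2 and 17.5 TPM, while *EPCAM*, *CDH1*, *KRT7*, *KRT8* and *KRT19* were at most 0.387 TPM in any library, and *VIM*, a mesenchymal marker, stood between 3750 and 4410 TPM, while the mesenchymal genes *CDH2* and *FN1* were at most 0.0777 and 0.827 TPM. Of the 6 epithelial markers, 5 were thus below the filter, although the labels call these epithelial cells.

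Median-of-ratios scaling moved the median of all genes from -0.10 to 0.01, and then 2867 genes were higher and 2579 lower, against 1612 and 4017 on the TPM scale. After this scaling 21 members were higher and 9 lower. Of the HIST1 genes 17 were then higher and 3 lower, and of HIST2, HIST3 and HIST4 none was higher and 4 were lower. This scaling divides each library by a single factor, so it moves all clusters together and cannot test the difference between them. With chromosome 6 centred, 1 HIST1 gene was higher and 17 lower (median -0.32). In HIST2, HIST3 and HIST4 none was then higher and 6 were lower (median -0.41). The reads recovered per library ran from 10805320 to 18348021 in shEV and from 19551770 to 29608227 in shPAX2, so no shEV library reached the depth of any shPAX2 library.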

How the data were processed

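Total RNA of 3 shEV and 3 shPAX2 AN3CA libraries was read, and the authors deposited TPM values of 17471 genes in 1 table. The submitters' processing notes name bcl2fastq, STAR, Subread, featureCounts, edgeR and hg19 without roles. The counting settings for these libraries are not given in the sources used here, so multiply placed reads and strand may have been handled in several ways. Whole reads were recovered from the TPM ratios for 100% of genes (tolerance 1e-09). They served for depth, for the floor, for the read numbers given and for an alternative. Reads come out only up to a common factor of each gene, which was set from the gene length and was above 1 for 402 genes.

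Genes with at least 0.5 TPM in at least 3 libraries were fitted with limma 3.58.1 in R 4.3.3 on log2(TPM + 0.5), with trended and robust moderation and no covariate. P-values were two-sided and adjusted by Benjamini-Hochberg over all 13163 genes tested. An exact permutation test of 3 against 3 libraries cannot go below 0.1 and was not used. The fit was tested on simulated data. Positions are from GENCODE on GRCh37, with 94.8% of genes matched, and promoters from RefSeq on GRCh38.p14.

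Members and gene lists were chosen with earlier results of these data known. The genes named are all variants, the most abundant and the highest and lowest by fold change in each HIST1 class, every tested gene of the other clusters, each past the fold threshold, *SLBP*, *NPAT*, *CASP8AP2*, *LSM10*, *LSM11*, *E2F1*, the extremes of both regulator lists, and *PAX2*. Other genes were named after their values were seen. Alternatives changed the pseudocount, filter, scaling, moderation, test and call threshold, centred chromosome 6, added the replicate number as a block, and left out each library. Correlations of same-numbered libraries were -0.05, 0.08 and 0.00, so the numbers were not taken to pair them.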

Additional observations from a re-analysis of the deposited data

How the results depend on the processing

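Of 506 values of single genes under settings other than leaving out a library, 455 kept their direction and side of the threshold, 22 lost and 13 gained a call, and 16 reversed. The 12 members called higher became 0 with a log2 fold change of at least 1, 6 at an adjusted p under 0.01, 2 with chromosome 6 centred and 21 with median-of-ratios scaling. The 12 called lower became 1, 6 and 25 under the first 3 of these. Leaving out each library gave 7 to 16 higher, the 7 without shPAX2 replicate 2 and 8 without shEV replicate 2 or 3, and 8 to 13 lower. The HIST1 median became -0.32 with chromosome 6 centred and was 0.09 to 0.26 without 1 library, 0.09 without shPAX2 replicate 1. The median of HIST2, HIST3 and HIST4 became -0.30 with median-of-ratios scaling and -0.25 with no filter, which adds untested genes near 0, and that of the variants 0.20 with median-of-ratios scaling. The cause of the other moves was not tested.

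Centring chromosome 6 reversed *HIST1H1E* to -0.48, *HIST1H2AG* to -0.24, *HIST1H2BJ* to -0.071, *HIST1H3B* to -0.13 and *HIST1H4C* to -0.072, as the subtraction of that chromosome's shift makes it do. Genes near 0 reversed too. *H2AFY* became 0.10 with median-of-ratios scaling, 0.0023 without RPPH1 and RMRP and 0.0083 with voom on recovered reads. *HIST1H1T* became 0.0315, 0.1788 and 0.0249 with median-of-ratios scaling, quantile normalization and voom. *HIST3H3* became 0.0858 with a pseudocount of 0.1, 0.0372 with median-of-ratios scaling and 0.0015 with quantile normalization. *LSM11* became 0.025 with quantile normalization and *LSM10* -0.0006 with voom.

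With each library left out in turn, values that changed sign ran from -0.0393 to 0.0253 for *H2AFY*, -0.1707 to 0.2481 for *H3F3A*, -0.0096 to 0.0794 for *HIST1H1E*, -0.2437 to 0.1203 for *HIST1H1T*, -0.4458 to 0.242 for *HIST3H3* and -0.0689 to 0.1201 for *LSM10*, none of them called. The replicate block gave 15 members higher and 12 lower and 5112 genes called against 5629. *HIST2H3D* and *HIST1H2BM* were called with it and *HIST2H2BE* and *H3F3B* were not. Voom on recovered reads called 5935 genes, with 16 members higher and 11 lower. Depth limits the scarce members, of which 15 had at most 3 reads in every library.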
